A study of Mus musculus with 2 samples.

Results

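The 10 genes described here encode fatty acid desaturases and elongases, the enzymes that put double bonds into acyl chains and lengthen them: Scd1, Scd2, Fads1, Fads2, Fads3, Elovl1, Elovl2, Elovl3, Elovl5 and Elovl6. They were taken by symbol from the 22609 gene symbols counted, and all 10 were found. Liver RNA of male C57BL/6 mice was counted in 2 libraries, 1 for wild type and 1 with the label Lrg1 knockout (the knockout-labelled library below), a deletion in the whole body and not in liver alone. Mice of both genotypes had eaten a diet with 45% of its calories as fat for 16 weeks, from 8 weeks of age, and no group on another diet was analysed here. Whether a library holds RNA of 1 mouse or of several, and the hour of collection, are not stated in the labels.

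Saturated palmitate, the product of fatty acid synthase, feeds a monounsaturated branch. Elovl6 lengthens palmitate to stearate, Scd enzymes place a double bond to give palmitoleate and oleate, and Elovl3 and Elovl1 extend saturated and monounsaturated chains further. The polyunsaturated branch starts from dietary linoleate and alpha-linolenate, which animals cannot make. Fads2 acts first in it and Fads1 later, while Elovl5 and Elovl2 lengthen the intermediates on the way to arachidonate and docosahexaenoate. Liver is a main site of both branches. Fads3, which desaturates sphingoid bases, was put in neither branch.

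With 1 library per genotype there is no replicate check, so no test between genotypes was possible and every difference below is one between these libraries. Read counts were divided by library size scaled with trimmed means (TMM) and are given as CPM, and log2 ratios are those of the knockout-labelled library to wild type. Intervals are at 95% and cover counting error only; reads that carry no molecular identifier may be copies of 1 molecule. The libraries held 23311906 and 18738397 reads in genes, so that 1 read was worth 0.0441 CPM in wild type and 0.0519 CPM in the knockout-labelled library. Lrg1 itself had 26958 reads (1190 CPM) in wild type against 17572 (911 CPM) in the knockout-labelled library, and a count per gene cannot place these reads along it. The label could therefore not be checked, and each direction below is drawn from a library with that label that held Lrg1 reads. Defining markers of hepatocytes were abundant in both, with Alb, the gene of serum albumin, at 79170 and 64406 CPM.

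Over the 11411 genes whose reads in both libraries together reached 50, called measured below, 2.5% were at least 2-fold lower and 1.7% at least 2-fold higher in the knockout-labelled library. When libraries were scaled to the summed reads of 14 hepatocyte markers instead, of which Alb holds the largest part, all ratios moved up by 0.18 (log2), and the 285 genes lower and 194 higher became 201 and 318. All 10 desaturase and elongase genes were measured. Of these, 1 was at least 2-fold lower (Scd1) and 1 at least 2-fold higher (Elovl3). Their log2 ratios spanned -2.60 to 1.53 with a median of -0.09, and 5 lay below 0 and 5 above, while the median of all measured genes was -0.01 with 51.7% of them below 0. The counting intervals of Scd2 and Fads3, the members with the fewest reads, included no difference, and those of the other members did not. Such intervals narrow with read depth: of 14 hepatocyte markers, those of 10 lay below no difference and those of 2 above it. The share of all measured genes whose intervals leave out no difference is not given here. In bulk tissue, fewer cells of a type and less RNA per cell cannot be told apart.

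**Figure D1:**
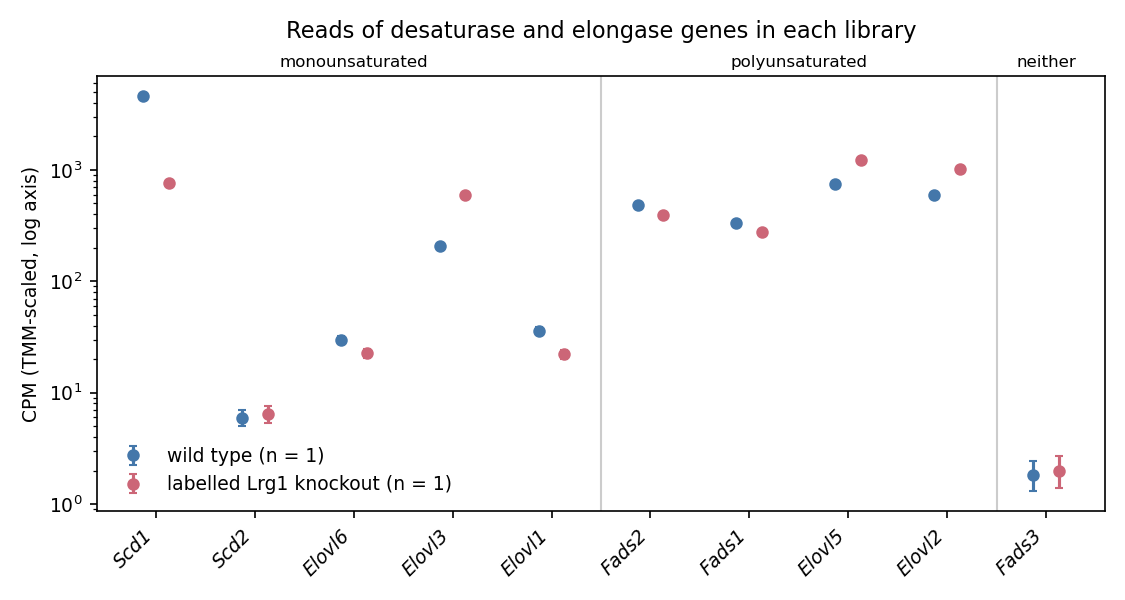
Level of each of the 10 genes in CPM on a log axis, 1 point per library, with exact Poisson intervals at 95%. The points lie farthest apart for Scd1 (4617 and 763 CPM) and Elovl3 (206 and 594 CPM), and the intervals overlap for Scd2 and Fads3.

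Scd1, the main liver desaturase for palmitoleate and oleate, had 104585 reads in wild type against 14722 in the knockout-labelled library. That is 4617 CPM (4589 to 4645) against 763 CPM (751 to 776; exact Poisson intervals), 6.05-fold more in wild type (exact Clopper-Pearson interval 5.94 to 6.15). Scd1 alone took 0.449% of all reads in genes in wild type and 0.0786% in the knockout-labelled library. Only 27 of 11411 measured genes had a lower log2 ratio than its -2.60. Scd2, the related desaturase that is prominent in brain, had 135 and 124 reads, or 5.96 and 6.43 CPM, and its ratio of 1.08 had an interval of 0.839 to 1.39. The Scd2 libraries thus differed by less than counting error, and Scd1 carried nearly all Scd reads: 775 per read of Scd2 in wild type and 119 in the knockout-labelled library. Scd3 had 1 read in each library and Scd4 had 2 and 0 reads, at or under the floor of 3 counts.

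Scd1 to Scd4 lie together on chromosome 19 and share coding sequence, which bears on how far reads of 50 bases can tell them apart. The 50 coding bases below, positions 463 to 512 of Scd1 counted from the start codon (GENCODE M21, GRCm38, minus strand), stand unchanged in Scd2, Scd3 and Scd4. A read from within this stretch matches all 4 transcripts equally well.
Scd1, Scd2, Scd3 and Scd4: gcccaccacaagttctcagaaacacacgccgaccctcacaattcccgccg
Of the 4888 distinct stretches of 50 bases in Scd1 transcripts, 4.56% occurred exactly in a transcript of another gene, and 3.97% of those of Scd2. Allowing up to 2 mismatches, 8.0% of windows along the longest Scd2 transcript matched Scd1. Within the coding sequence of Scd2 this share was 42.1%. The window of 50 coding bases that differed most lies near the start of the coding sequence, with the 27 bases of Scd2 that differ from Scd1 in capitals.
Scd1 (65 to 114): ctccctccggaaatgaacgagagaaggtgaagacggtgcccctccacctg
Scd2 (74 to 123): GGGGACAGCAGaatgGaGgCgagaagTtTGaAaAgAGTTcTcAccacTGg
How many of the few Scd2 reads came from Scd1 was not tested. Among the other members, Fads2 and Fads3 shared 5 stretches with each other, Elovl1 shared 4 with Cdc20, and 4.0% of Elovl6 stretches occurred in transcripts of other genes. Fads1, Elovl2, Elovl3 and Elovl5 shared none.

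Elovl6, which makes the stearate that Scd1 turns into oleate, had 671 reads in wild type against 436 in the knockout-labelled library, or 29.6 and 22.6 CPM. It was lower, at 0.763 of wild type (0.675 to 0.862), a log2 ratio of -0.39. Elovl1, an elongase of very long saturated and monounsaturated chains for sphingolipids, had 815 and 426 reads, or 36.0 and 22.1 CPM. Its ratio was 0.614 (0.545 to 0.691), and 565 measured genes lay below its log2 ratio of -0.70. Exons of Elovl1 overlap those of Cdc20 on the other strand over 53 bases, but Cdc20 had 10 and 3 reads. Elovl3, an elongase of saturated and monounsaturated chains that was first known from cold-exposed brown fat, stood at the other end of the branch. It had 4666 reads in wild type against 11453 in the knockout-labelled library, 206 CPM (200.1 to 212) against 594 CPM (583 to 605). Its level was 2.88-fold higher (2.79 to 2.98), and only 58 measured genes had a higher log2 ratio than its 1.53. The monounsaturated branch thus held the lowest and the highest ratio of all 10 genes.

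Fads2, the first desaturase of the polyunsaturated branch, had 10950 reads in wild type against 7584 in the knockout-labelled library, or 483 and 393 CPM. Its ratio was 0.814 (0.790 to 0.838), a log2 ratio of -0.30. Fads1, which makes arachidonate and eicosapentaenoate from intermediates that Elovl5 has lengthened, had 7593 and 5285 reads, or 335 and 274 CPM, at a ratio of 0.818 (0.789 to 0.847) and a log2 ratio of -0.29. Both were lower by nearly the same factor. Alb had a log2 ratio of -0.30 between the same libraries, but the 14 hepatocyte markers had a median of -0.043, with 11 lower and 3 higher. Under the scaling to hepatocyte markers, Fads1 stood at -0.11 and Fads2 at -0.12. Fads3 had 41 and 38 reads, 1.81 and 1.97 CPM, and its interval of 0.681 to 1.74 included no difference.

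Elovl5, which lengthens the first products of Fads2, had the highest level of the 5 elongases per exon length in both libraries. It had 16736 reads in wild type against 23676 in the knockout-labelled library, 739 CPM (728 to 750.1) against 1228 CPM (1212 to 1244), 1.66-fold higher (1.63 to 1.70). Elovl2, which acts on the longer chains before docosahexaenoate is made, had 13446 and 19448 reads, 594 CPM (584 to 604) against 1009 CPM (994.4 to 1023), 1.70-fold higher (1.66 to 1.74). Their log2 ratios of 0.73 and 0.76 placed 407 and 377 measured genes above them. The polyunsaturated branch was thus split by enzyme class, with both desaturases lower and both elongases higher.

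**Figure D2:**
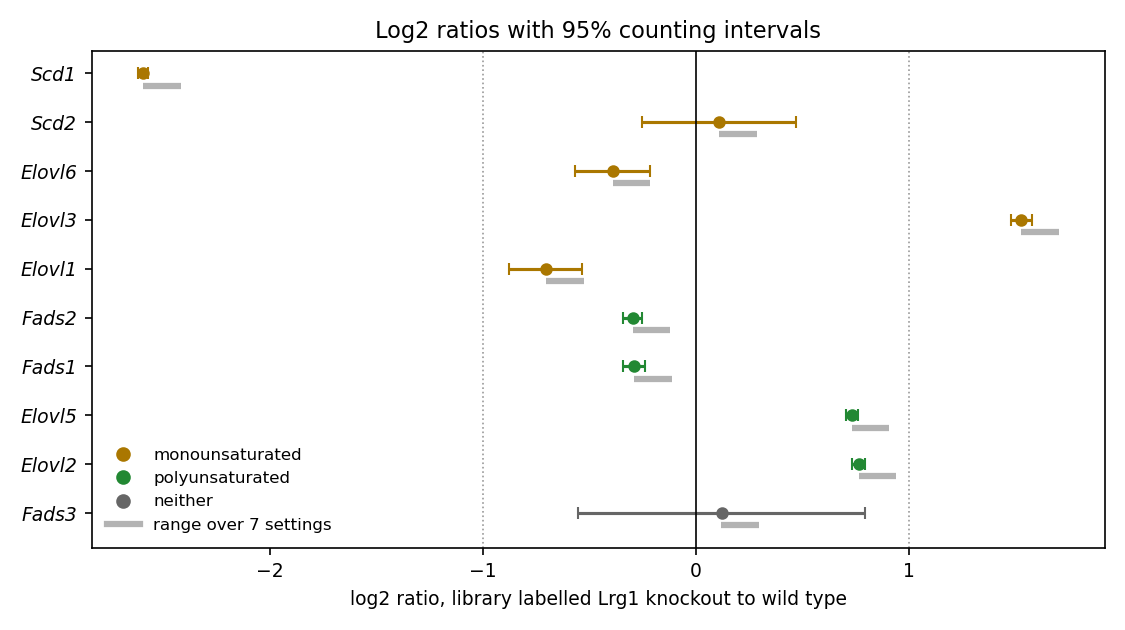
Log2 ratio of the knockout-labelled library to wild type for each gene, with exact 95% intervals for counting error; grey bars give the range over the main scaling and 6 alternatives, and dotted lines mark 2-fold. Scd1 (-2.60) and Elovl3 (1.53) lie past the dotted lines, and no gene changes side under any of these settings.

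The monounsaturated branch of 5 genes had a median log2 ratio of -0.39, with 3 lower and 2 higher. The polyunsaturated branch of 4 genes had a median of 0.22, with 2 lower and 2 higher. The difference of -0.61 between these medians is small beside the spread inside each branch, from -2.60 to 1.53 and from -0.30 to 0.76. It turned to 0.15 without the member farthest from 0 in each branch, Scd1 and Elovl2, so the medians alone do not separate the branches. The summed levels went in opposite directions. The monounsaturated branch summed to 4894 CPM in wild type against 1408 CPM in the knockout-labelled library, 3.47-fold higher in wild type. The polyunsaturated branch summed to 2151 and 2904 CPM, 1.35-fold higher in the knockout-labelled library (1.33 to 1.37). Scd1 held 94.3% of the monounsaturated branch's reads in wild type and 54.2% in the knockout-labelled library. Without Scd1 that branch summed to 277.5 and 645.1 CPM, 2.32-fold higher in the knockout-labelled library (2.25 to 2.40), and Elovl3 made up 206 and 594 CPM of these sums. Grouped by enzyme class, a grouping made after the values were seen, the 5 desaturases summed to 5443 and 1439 CPM and the 5 elongases to 1604 and 2875 CPM. The elongase sum was 1.79-fold higher (1.77 to 1.82) in the knockout-labelled library.

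Levels of different genes were compared only per exon length, as TPM, from the union of annotated exons. Scd1 led in wild type with 2471 TPM, followed by Elovl5 with 549, Elovl2 with 392, Fads2 with 384, Elovl3 with 273 and Fads1 with 182 TPM. Elovl2 and Fads2 are neighbours in that order whose levels differ by less than a change of length rule moves them, since with the longest transcript they stood at 328 and 326 TPM. In the knockout-labelled library the order was Elovl5 with 952, Elovl3 with 821, Elovl2 with 695, Scd1 with 426, Fads2 with 326 and Fads1 with 156 TPM. Elovl1, Elovl6, Scd2 and Fads3 came last in both, at 34.6, 12.1, 2.86 and 1.25 TPM in wild type. This order was the same in each library with the longest transcript as the length. The monounsaturated branch made up 64.9% of the summed level of the 10 genes in wild type and 37.6% in the knockout-labelled library, and the polyunsaturated branch 35.0% and 62.4%. Scd1 alone went from 57.4% to 12.5% and Elovl3 from 6.35% to 24.1%. Elongases went from 29.3% to 73.3%.

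**Figure D3:**
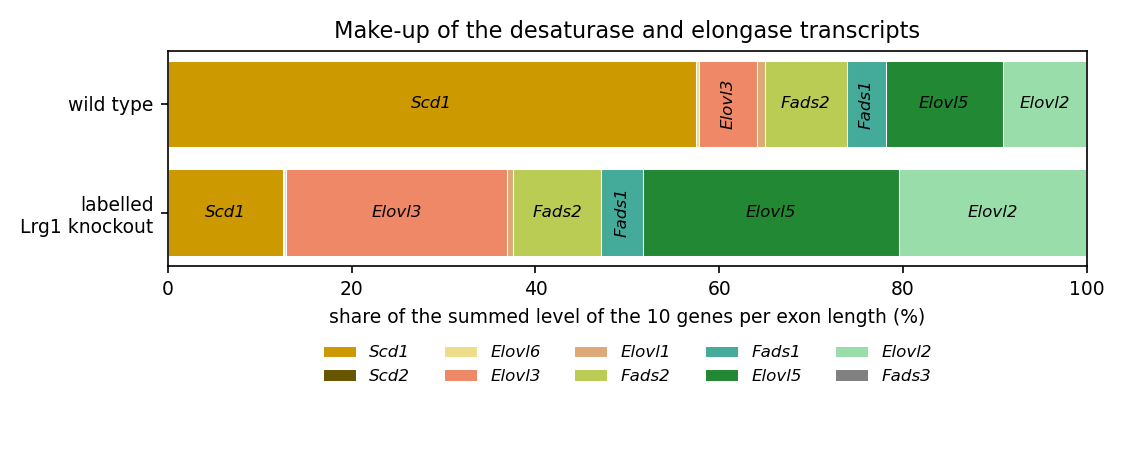
Share of each gene in the summed TPM of the 10 genes, 1 bar per library; yellow, brown and salmon shades are the monounsaturated and green shades the polyunsaturated branch. Scd1 takes 57.4% of the wild-type bar and 12.5% of the other, where Elovl5, Elovl3 and Elovl2 take the largest shares (27.9%, 24.1% and 20.4%).

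Read ratios between genes inside a library do not depend on how the libraries are scaled. Of 18 such pairs computed, Scd1 to Elovl3 differed most, with 22.4 reads of Scd1 per read of Elovl3 in wild type and 1.29 in the knockout-labelled library, 17.4-fold fewer (16.8 to 18.1). Scd1 had 9.55 reads per read of Fads2 in wild type and 1.94 in the knockout-labelled library, 4.92-fold fewer (4.76 to 5.09, log-normal interval for counting error). Per read of Fads1 it had 13.8 and 2.79. Per read of Elovl5 it had 6.25 and 0.622, and per read of Elovl2 7.78 and 0.757. Per exon length, the level of Scd1 was 4.499 times that of Elovl5, 6.31 times that of Elovl2 and 9.05 times that of Elovl3 in wild type, and 0.448, 0.614 and 0.519 times in the knockout-labelled library. Inside the monounsaturated branch Scd1 had 156 reads per read of Elovl6 in wild type and 33.8 in the knockout-labelled library, 4.62-fold fewer (4.09 to 5.21).

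The ratios within each enzyme class of the polyunsaturated branch hardly differed. Fads2 had 1.442 reads per read of Fads1 in wild type and 1.435 in the knockout-labelled library, a quotient of 0.995 with an interval of 0.951 to 1.04. Elovl5 had 1.24 and 1.22 reads per read of Elovl2, a quotient of 0.978 (0.9496 to 1.01). These intervals cover counting error only and do not show that the genes are regulated alike. Between elongases and desaturases the ratios differed, with 1.53 and 3.12 reads of Elovl5 per read of Fads2, a quotient of 2.04 (1.97 to 2.12), and 1.77 and 3.68 reads of Elovl2 per read of Fads1, a quotient of 2.08 (1.99 to 2.17).

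**Figure D4:**
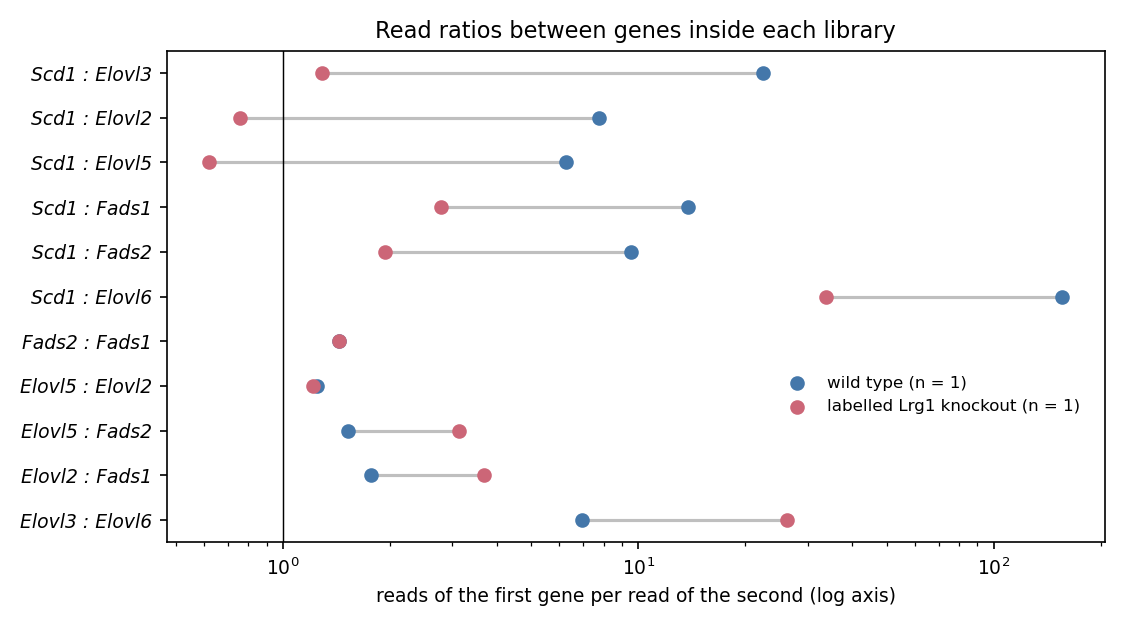
Reads of 1 gene per read of another inside each library, on a log axis, for 11 of the pairs, with a line joining the libraries. Points of Fads2 to Fads1 and of Elovl5 to Elovl2 nearly coincide, while every pair with Scd1 lies further left in the knockout-labelled library.

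Bases before the transcription start are shown for 3 elongases whose start regions were at hand, both of the higher polyunsaturated elongases and the lower Elovl6. RefSeq windows on GRCm38.p6 were found for 6 of the 10 genes: Elovl1, Elovl2, Elovl5, Elovl6, Fads2 and Fads3. The 250 bases before each start were searched on both strands for CACGTG (E-box), CCAAT (NF-Y box), GGGCGG (GC box), TCACNCCAC (sterol element), AGGTCA (nuclear receptor core motif), TGACGTCA (CRE) and TTATGTAA (D-box). No overlaps between matches of different motifs were removed. The lines below read along the strand of the gene, with matches on either strand in capitals (ATTGG and TGACCT are CCAAT and AGGTCA on the other strand), and bases in annotated exons were left out. The read counts themselves were made on another build, mm9.
Elovl2, chr13:41220406-41220523, minus strand: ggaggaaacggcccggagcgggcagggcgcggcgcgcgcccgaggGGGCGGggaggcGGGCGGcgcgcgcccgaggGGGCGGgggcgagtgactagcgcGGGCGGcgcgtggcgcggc
Elovl5, chr9:77917145-77917363, plus strand: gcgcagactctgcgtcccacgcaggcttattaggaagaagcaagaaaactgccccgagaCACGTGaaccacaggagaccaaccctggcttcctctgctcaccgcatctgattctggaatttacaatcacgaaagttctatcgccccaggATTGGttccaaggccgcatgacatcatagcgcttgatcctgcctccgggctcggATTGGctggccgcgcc
Elovl6, chr3:129532166-129532256, plus strand: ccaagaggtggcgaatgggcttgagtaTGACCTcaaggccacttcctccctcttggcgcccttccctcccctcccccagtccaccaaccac

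The windows of Elovl2 and Elovl5, whose ratios were within 0.04 of each other on the log2 scale, held no motif in common among those searched. Of the 2 windows of Elovl2, 1 had 5 GC boxes, 4 of them in the stretch shown, and the other had no match. A GC box is a motif that 32.7% of all 32851 RefSeq windows hold at least once. Elovl5 had 1 E-box, the motif bound by clock and carbohydrate-response factors among others, found in 6.02% of windows, and 2 NF-Y boxes, found in 33.8%. Elovl6 had 1 nuclear receptor core motif (14.0% of windows), and Fads2 had 1 GC box. Elovl1 and Fads3 held GC and NF-Y boxes, and 1 window of Elovl1 a nuclear receptor core motif. A match is a run of letters and not a bound site. The sterol element, present in 1.05% of windows, matched in none of the 6 genes, which says only that these letters are not in these windows.

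Genes that supply the substrate and partners of these enzymes were mostly lower in the knockout-labelled library, but few by as much as Scd1. The list for palmitate synthesis also holds Oxsm (-0.09) and Mcat (0.12), which belong to the separate mitochondrial pathway. The list's median was -0.34 (-0.16 under the hepatocyte marker scaling), and of 11 measured genes 9 were below 0, with 2 past 2-fold. Fasn, the fatty acid synthase, had 2543 and 750 reads (-1.53), Thrsp, a lipogenic regulator, was at -3.47, Acss2, which activates acetate, at -0.74 and Acacb at -0.71. Acaca, the cytosolic acetyl-CoA carboxylase, had 337 and 264 reads and a log2 ratio of -0.12. Scd1 had 41.1 reads per read of Fasn in wild type and 19.6 in the knockout-labelled library, and Elovl6 0.264 and 0.581. Relative to Fasn, Scd1 was therefore lower and Elovl6 higher in the knockout-labelled library.

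The elongation cycle that all Elovl enzymes share had 4 of 5 measured genes below 0 with a median of -0.19, or -0.011 under the hepatocyte marker scaling. Hsd17b12, its ketoacyl reductase, was at -0.19, and Tecr, its enoyl reductase, at -0.45. Dehydratase genes are listed under older symbols. Ptplad1, the one with the most reads (7398 and 6164), stood at -0.031. Ptpla stood at 0.15 on 90 and 85 reads and Ptplb at -0.29. None of the 5 was 2-fold apart, and none followed Elovl2, Elovl3 or Elovl5 upward by an interval that left out 0. Of the genes that pass electrons to desaturases, 4 of 5 were below 0 with a median of -0.31, or -0.13 under that scaling. Cyb5r3, the cytochrome b5 reductase, was at -0.47, Cyb5r4 at -0.35 and Cyb5b at -0.31. Cyb5, the gene of this list with the most reads (27358 and 22730), was at -0.035. Cyb5r1 was at 0.30 on 123 and 129 reads, with an interval of -0.067 to 0.669 that included 0. Other members of the families were scarce: Elovl4 had 2 and 0 reads and Elovl7 12 and 2 reads, while Fads6 was at -0.45 and Degs1, the ceramide desaturase, at 0.05.

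Among 20 transcriptional regulators, the median was -0.19 (-0.014 under the hepatocyte marker scaling), and 17 were below 0, with 2 past 2-fold. Srebf1, which drives lipogenic genes including Scd1, Fads1, Fads2 and Elovl6, had 1541 and 806 reads (-0.70). Insig1, which retains its precursor in the endoplasmic reticulum and is itself a target, was at -1.04, Ppargc1b, a coactivator, at -1.32, and Insig2 was higher at 0.62. Mlxipl, the carbohydrate response factor, was at -0.14, Nr1h3, the oxysterol receptor, at -0.19 and Ppara, a fatty acid receptor, at -0.22. Fads2 had 7.11 reads per read of Srebf1 in wild type and 9.41 in the knockout-labelled library.

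Genes that use the products differed little. For acyl-CoA activation and phospholipid remodelling 7 of 10 measured genes were above 0, 0 were 2-fold apart and the median was 0.07. Acsl3 was at 0.69, Acsl1, the main acyl-CoA synthetase of liver, at 0.35, Lpcat2 at 0.30 and Lclat1 at -0.19. For the peroxisomal shortening that completes docosahexaenoate, 8 of 10 were below 0 and 0 were 2-fold apart, with a median of -0.11 that turned to 0.070 under the hepatocyte marker scaling. Abcd2, a peroxisomal transporter of very long chains, was at -0.18 and Hsd17b4 at -0.15. Acaa1b, which has a close paralog in Acaa1a, was at 0.45, and how reads of this pair were divided was not tested. Elovl2 and Elovl5, at 0.76 and 0.73, lay above every measured gene of these 2 lists. The interval of Acsl3, 0.39 to 0.99 on 161 and 221 reads, included both of these values.

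**Figure D5:**
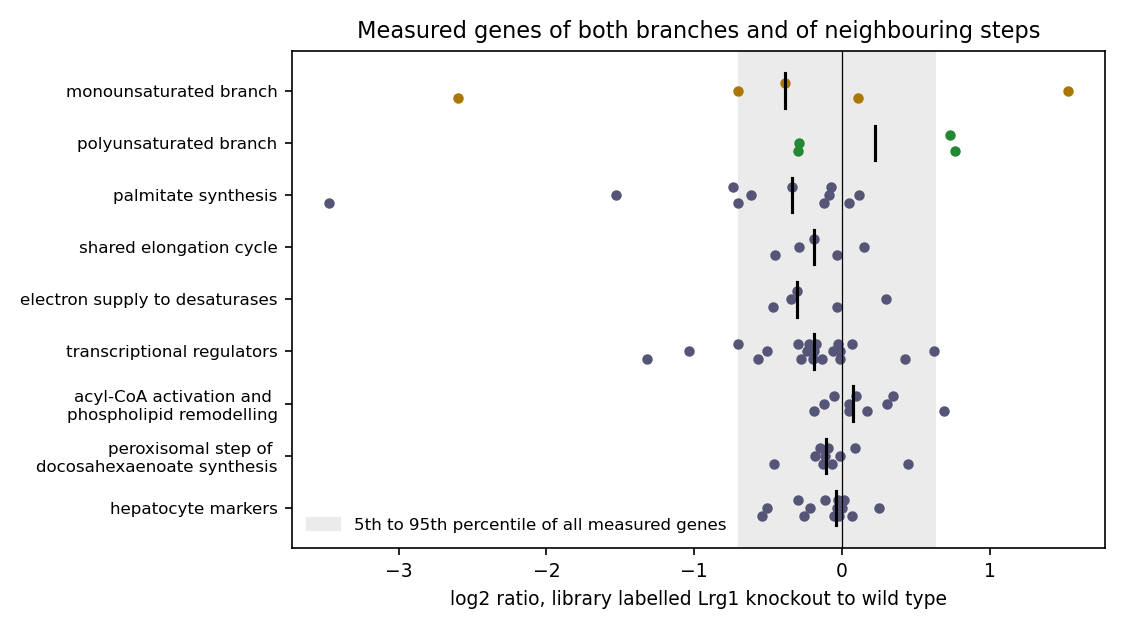
Log2 ratios of the measured genes of each list, 1 point per gene, with the list's median as a black line; the grey band spans the 5th to the 95th percentile of all measured genes. Scd1, Elovl1 (only just), Elovl2, Elovl3 and Elovl5 lie outside the band. So do Acsl3 (0.69) and some palmitate synthesis genes and regulators, Thrsp (-3.47) and Ppargc1b (-1.32) among them. The elongation cycle, electron supply and peroxisomal lists lie inside it.

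Other differences between the libraries ran alongside these. Elovl3 is known as a male-biased and rhythmic gene of mouse liver. Male-biased genes had a median of 1.12, with 15 of 15 above 0 and Hsd3b5 at 3.70. The minimum of 50 reads left out 0 of these 15, so this count covers the whole list. Moxd1 (0 and 59 reads) and Ugt2b38 (26 and 137) reached the minimum only through their reads in the knockout-labelled library. Of 14 female-biased genes 9 were under the minimum of 50 reads, and 3 of the other 5 reached it only through their wild-type reads, so no count or median is given for them. Cyp2b9 (4348 and 387 reads, -3.26) and Acot3 (570 and 561 reads, 0.21) reached it in each library alone. Of 18 circadian clock genes 13 were lower, with Dbp at -3.31, and 5 higher, with Npas2 at 2.21 and Arntl at 1.49. The median of -1.04 was taken over genes that went both ways. The minimum left out 0 of these 18, though some, Gm129 among them (342 and 7 reads), reached it only through 1 library. The part of either in the values of Elovl3, Scd1 and the other members was not tested. Kupffer cell and macrophage markers were lower for 10 of 11 genes, summing to 669 and 541 CPM, and sinusoidal endothelial markers higher for 8 of 10, summing to 265 and 385 CPM. Their part in the low-abundance genes Scd2, Elovl1 and Fads3 was not tested. Adipocytes, which express Scd1 strongly, left few reads of their defining markers: Plin1, Lep and Retn had 0 in both libraries and Adipoq had 1 and 4. The list's summed level was 68.2 and 32.1 CPM, and 5 of its 8 genes were under 50 reads. Of the other 3, Cfd (711 and 104 reads, -2.54) and Lipe (-0.95) were lower and Adrb3 (1.18) was higher. The part of this list in the value of Scd1 was not tested.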

How the data were processed

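Liver poly(A) RNA of 2 groups, wild type and Lrg1 knockout, was measured in 1 library each, from about 500 ng of RNA with a stranded kit and single-end reads of 50 bases, per the labels' protocols. Read counts for each gene symbol, not normalized, are what the authors deposited. Per the submitters' processing notes bcl2fastq, TopHat2, HTSeq and mm9 were used. The strand setting, the annotation and all versions were not given in the sources used here. Library sizes exclude lines that name no gene. Reads outside genes were 14.0% and 14.4% of unique alignments, reads in several genes 0.231% and 0.234%.

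Counts were scaled with TMM in edgeR 4.0.16 under R 4.3.3 (factors 0.972 and 1.03), with a prior count of 0.5 for log2 ratios and a minimum of 50 reads summed over both libraries. Alternatives were DESeq2 1.42.0 size factors, total counts, total counts without the 20 most abundant genes, hepatocyte marker reads, thinning, a prior of 2, other minimums and folds, and other branch assignments. Lengths came from GENCODE M21 for 20248 symbols and 1903 older symbols, leaving 0.43% of reads without one. Sequences are RefSeq's (GRCm38.p6) and GENCODE's. Named genes were the members, Lrg1, at most the 4 measured genes of each list farthest from 0 and, whatever their values, Fasn, Acaca, Srebf1, Mlxipl, Nr1h3, Ppara, Insig1, Hsd17b12, Tecr, Scd3, Scd4, Elovl4, Elovl7, Alb, Adipoq and Plin1. Cdc20, Lep, Retn, Ptplad1, Cyb5, Oxsm, Mcat, Npas2, Arntl and Acot3 were named after their values were seen. The members and lists were chosen with earlier results of these data known. Ratios and intervals were tested on simulated data drawn with Poisson counting error only, so that test did not cover spread between animals or libraries. Scripts ran under Python 3.11.15 with matplotlib 3.10.9, pandas 2.3.3, scipy 1.17.1 and numpy 2.4.6.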

Additional observations from a re-analysis of the deposited data

Results flagged for a closer look

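Lines outside the counts per gene drew attention as signal that the comparisons do not use, above what a count of 0 allows. Alignments that were not unique numbered 27554856 in wild type and 30368128 in the knockout-labelled library, 50.3% and 58.0% of all counted lines. Stretches that Scd1 to Scd4 share would fall there. Reads outside genes numbered 3808156 and 3171747, and reads in more than 1 gene 62742 and 51451.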

How the results depend on the processing

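No member changed direction under 4 other scalings, thinning of the deeper library or a prior count of 2: Scd1 ranged from -2.60 to -2.42, Elovl3 from 1.53 to 1.70, Elovl2 from 0.76 to 0.94 and Fads1 from -0.29 to -0.11 (log2). The number of members past the fold followed the threshold by construction: 2 lower and 3 higher at 1.5-fold, and 0 higher at 3-fold. The difference of branch medians, -0.61, was -2.23 with summed reads, -0.51 with Fads3 in the polyunsaturated branch, -0.36 without Elovl1 and 0.15 without the member farthest from 0 in each branch; summed reads weight genes by abundance, and the other alternatives change which genes enter. All 18 read ratios stayed inside their intervals after thinning. The hepatocyte marker median turned from -0.043 to 0.040 under total counts, which add 0.08 to the median gene, and the cholangiocyte median from 0.014 to -0.056 with a minimum of 10 reads, which admits further genes. That minimum moved the lymphocyte and neutrophil median from 0.068 to 0.415. Hepatocyte marker scaling of the lists, chosen after seeing the data, adds nearly the same shift to each gene, and turned the peroxisomal median from -0.11 to 0.070 and the hepatocyte marker median to 0.13. Over all genes, 2-fold higher and lower counts were 1243 and 1449 from 1 read, 100 and 166 from 200 reads, 667 and 789 at 1.5-fold, 51 and 105 at 3-fold, and 318 and 201 under hepatocyte marker scaling. No paired analysis was possible because each group has 1 library. Depth limits Scd2 and Fads3, with 135 and 124 and with 41 and 38 reads.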

Other observations

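Ceramide synthases, only some of which use the very long acyl chains made by Elovl1 and Elovl3, had 2 of 4 measured genes above and 2 below 0, with a median of 0.17. They are listed under older symbols: Lass4 was at 0.78 on 45 and 66 reads, Lass5 at 0.59 on 46 and 59, Lass2, the main liver form, at -0.28 on 7311 and 5113, and Lass6 at -0.24. Further marker lists gave small medians: stellate cells and fibroblasts 0.05 (6 of 9 above 0, with Col1a1 at -1.07), cholangiocytes 0.01 over 2 genes, lymphocytes and neutrophils 0.07 over 3 genes, and red cells 0.28 on Alas2 alone.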
